A study of Mus musculus with 6 samples.

Results

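Secretoglobins are small secreted proteins, and the rows of the expression table whose gene name begins with Scgb were examined in stomach corpus tissue of mice with a point mutation in the transcription factor RUNX3. The members are the Scgb rows with a mean of at least 1 FPKM (fragments scaled by transcript length and library total) over the 6 libraries. This rule took 8 of 20 Scgb rows, out of 18708 rows in all: Scgb2b20, Scgb2b17, Scgb2b15, Scgb1b20, Scgb2b7, Scgb1b7, Scgb2b21 and Scgb2b12. The members were chosen by their mean FPKM over all 6 libraries, so their mean level is a description. The lowest member mean was 1.74 FPKM, in Scgb2b12, and the highest mean outside was 0.747 FPKM, in Scgb1b29.

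The tissue was the corpus, the acid-secreting part of the stomach, of C57BL/6 mice aged 6 months. The groups were 3 wild-type (WT) mice and 3 mice of the genotype RUNX3 R122C, with 1 mouse per library. The sources used here do not give zygosity, sex or how the allele was made. Where 3 values are listed for a group, they follow the mouse numbers 1, 2 and 3. The libraries are of whole tissue, so more cells of a type and more RNA per cell cannot be told apart.

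Scgb1b and Scgb2b genes are a rodent branch of the secretoglobin family. They encode the alpha subunits (Scgb1b) and the beta or gamma subunits (Scgb2b) of androgen-binding protein, a secreted dimer joined by disulfide bonds that is known from mouse saliva and tears. Genes of both kinds sit side by side in a large cluster with many pseudogenes. Scgb1a1 (uteroglobin) and Scgb3a1, other branches of the family, are known from the secretory cells of the airway.

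All 8 members belong to the chromosome 7 cluster. In GENCODE M21 (build GRCm38, the assembly of mm10) the cluster holds 64 Scgb1b and Scgb2b genes between 31255891 and 34100837, a length of 2.84 megabases, of which 29 are protein-coding and 35 are pseudogenes. The members lie between 31703779 and 33520458. Each is protein-coding with up to 3 exons per annotated transcript, the 6 Scgb2b members on the minus strand and the 2 Scgb1b members on the plus strand. Of 15 numbers with both an Scgb1b and an Scgb2b gene, 13 had the pair head to head with start sites 4487 to 13520 bases apart. Scgb1b20 and Scgb2b20 start 6912 bases apart, and Scgb1b7 and Scgb2b7 6908 bases apart. The alpha-subunit partners of Scgb2b15, Scgb2b17, Scgb2b12 and Scgb2b21 have no row here and were not analysed here.

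The sequences before the start sites are shown first because the 6 Scgb2b members share much of them. RefSeq (GRCm38.p6) gave a promoter for 15 of the 20 rows and for these 6 members, and none for Scgb1b20 or Scgb1b7. The 250 bases before the start of Scgb2b20 (chr7:33366320-33366569, minus strand) are printed with TTTATAA in capitals.
Scgb2b20: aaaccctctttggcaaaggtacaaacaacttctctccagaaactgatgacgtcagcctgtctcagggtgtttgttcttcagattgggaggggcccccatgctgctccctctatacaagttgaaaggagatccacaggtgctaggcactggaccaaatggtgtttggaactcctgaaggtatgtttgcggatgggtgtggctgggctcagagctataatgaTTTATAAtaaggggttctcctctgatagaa

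The last 60 bases before the annotated start compare the other Scgb2b members with 3 Scgb2b rows of low level. Capitals mark TTTATAA or, where that was not found, TTGATAA, and all lie on the minus strand of chromosome 7.
Scgb2b17 (chr7:33056553-33056612, and identical letters in Scgb2b15 at chr7:32829654-32829713): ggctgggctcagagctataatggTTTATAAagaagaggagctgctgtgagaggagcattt
Scgb2b7 (chr7:31705755-31705814): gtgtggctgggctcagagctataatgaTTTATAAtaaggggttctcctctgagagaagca
Scgb2b21 (chr7:33520456-33520515): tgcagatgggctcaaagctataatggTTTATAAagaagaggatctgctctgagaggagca
Scgb2b12 (chr7:32327246-32327305): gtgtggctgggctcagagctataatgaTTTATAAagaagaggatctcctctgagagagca
Scgb2b19 (chr7:33280342-33280401): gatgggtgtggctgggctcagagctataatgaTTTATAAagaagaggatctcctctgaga
Scgb2b18 (chr7:33173862-33173921): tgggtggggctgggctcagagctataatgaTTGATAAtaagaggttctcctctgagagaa
Scgb2b11 (chr7:32211143-32211202): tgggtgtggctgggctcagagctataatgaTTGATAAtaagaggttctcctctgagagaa

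Between members these 250-base sequences were 84.2% to 100% identical, with a median of 91.9% over 15 pairs, so the 6 promoters are near copies and not independent. Some rows of low level were as alike: Scgb2b20 was 95.2% identical to Scgb2b18, and Scgb2b12 97.6% to Scgb2b19. Scgb2b24, also of low level, was less alike, at 77.9% to Scgb2b20. Over the 40 other pairs of Scgb2b promoters identity was 76.6% to 99.2%, with a median of 88.4%. TTTATAA, searched on both strands and chosen after the sequences were seen, was found in 6 of 6 members, 30 to 37 bases before the start, and in 3.61% of all 32851 promoters. It overlaps TATAAA, which was found in 6 of 6 members and in 12.4% of all promoters. Scgb2b18 and Scgb2b11, which hold TTGATAA, were at 0.25 FPKM or less in every library. TTTATAA stood in 8 of 15 Scgb promoters, among them the low rows Scgb2b19 (0.76 FPKM or less) and Scgb1b24, so it was not confined to members. It was not found in the low rows Scgb2b24 and Scgb2b27. The forkhead-type letters TGTTTGC stood in 5 of 6 members, 64 to 77 bases before the start, and in 8 of 15 Scgb promoters, among them the low rows Scgb2b18, Scgb2b11 and Scgb3a1. It was not found in the member Scgb2b12, and 4.30% of all promoters held it. The RUNX-type letters TGTGGT and TGCGGT were in 0 of 6 members (14.0% and 5.10% of all promoters). The letters TTNNGNAAT (C/EBP type) were in 1 of 6 (10.2%). TGTTTAC (forkhead) was in 0 of 6 (3.17%). TTGCNNCAA was in 0 of 6 (1.74%), but its spacing is not that of the usual C/EBP site, so its absence says nothing of such sites.

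Secretoglobin transcripts of the androgen-binding protein cluster were barely detected in WT corpus and abundant in R122C corpus. The 20 rows summed to 2.35, 2.52 and 0.48 FPKM in the WT mice. They summed to 4651, 2322 and 968 FPKM in the R122C mice, or 3525, 1767 and 783 FPKM with the identical rows Scgb2b15 and Scgb2b17 counted once. Counted once, this was 0.594%, 0.280% and 0.135% of the summed FPKM of those libraries. By level, Scgb2b20 ranked 38, 114 and 180 among all rows in the R122C mice, and between 12824 and 13740 in the WT libraries.

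**Figure D1:**
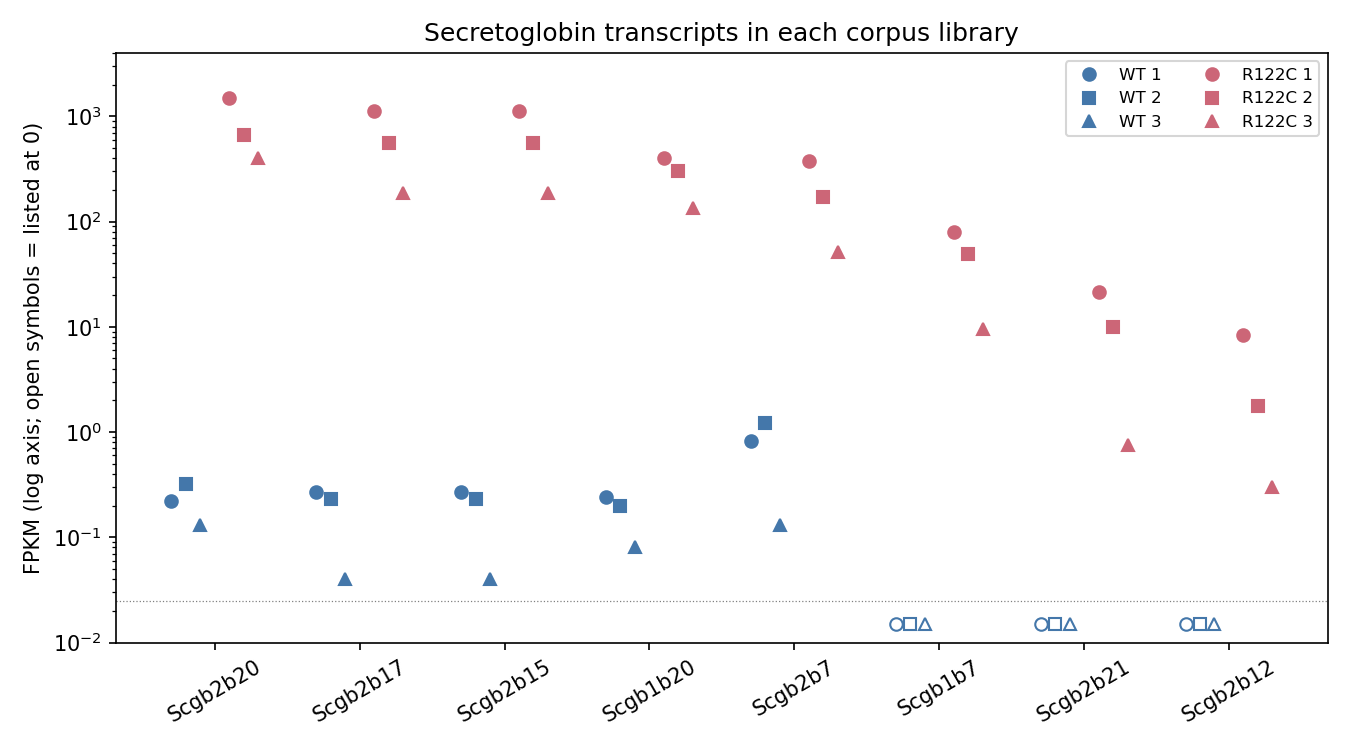
FPKM (log axis) of the 8 members in each of 6 libraries, with open symbols under the dotted line for values listed at 0. For every member the 3 R122C libraries lie above the 3 WT libraries, and R122C 1 is the highest and R122C 3 the lowest R122C library.

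Among the beta or gamma subunit genes, Scgb2b20 (33364343 to 33366322) was highest. It was at 0.22, 0.32 and 0.13 FPKM in the WT mice and at 1505, 669 and 398 FPKM in the R122C mice. The groups were far apart, and the R122C libraries differed 3.78-fold among themselves. The means were 0.223 ± 0.0950 and 857 ± 577 FPKM (SD, n = 3), which is 9.24 ± 0.42 (SE) as a log2 fold change on the log2(FPKM + 1) scale (limma adjusted p = 2.99e-05). Adding 1 FPKM shrinks the change of a gene this low in WT. The ratio of the means was 3839, with a WT mean that rests on few fragments, since 1 fragment of this transcript is worth an estimated 0.0424 to 0.0591 FPKM.

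Scgb2b17 (33054582 to 33056561) and Scgb2b15 (32827683 to 32829662) had the same value in every library. They were at 0.27, 0.23 and 0.04 FPKM in the WT mice and at 1126, 555 and 185 FPKM in the R122C mice. Their annotated transcripts are identical over 434 bases, so the values do not tell the loci apart and stand for 1 measurement. Both rose by 8.70 ± 0.54 on the log2 scale (SE, limma adjusted p = 0.000144). Scgb2b7 (31703779 to 31705757) was the member of highest WT level, at 0.83, 1.23 and 0.13 FPKM in the WT mice. It was at 374, 173 and 51.9 FPKM in the R122C mice, a rise of 6.50 ± 0.62 on the log2 scale (adjusted p = 0.00115).

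Scgb2b21 (33518481 to 33520458) and Scgb2b12 (32325286 to 32327245) were listed at 0 in all 3 WT libraries and did not pass the test. Scgb2b21 was at 21.6, 10.1 and 0.76 FPKM in the R122C mice, with an adjusted p of 0.0662 by limma. Scgb2b12 was at 8.35, 1.78 and 0.30 FPKM (adjusted p = 0.162). In both, R122C 3 lay near the WT level, and without R122C 3 both passed (adjusted p = 0.000111 and 0.0128). Scgb2b21 also passed with a pseudocount of 0.1 FPKM (0.0151) or 0.5 FPKM (0.0433) and after rescaling to a common total (0.0425). In all, Scgb2b21 passed under 4 of 17 alternatives and Scgb2b12 under 1 of 15, with limma adjusted p up to 0.215 and 0.354.

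Both alpha subunit members rose. Scgb1b20 (33373234 to 33374559) was at 0.24, 0.20 and 0.08 FPKM in the WT mice and at 406, 305 and 136 FPKM in the R122C mice. It rose by 7.78 ± 0.36 on the log2 scale (limma adjusted p = 2.99e-05), and its R122C libraries were the closest together of all members, with a 2.98-fold range. Scgb1b7 (31712665 to 31713978) was listed at 0 in every WT library and was at 78.9, 48.8 and 9.49 FPKM in the R122C mice, with an adjusted p of 0.00312 by limma. No fold is given against a group at 0.

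Of the 8 members 6 rose (75%), where 5.27% of all 11422 genes tested were called higher. All R122C values lay above all WT values in 8 of 8 members and in 20.3% of genes tested. The reverse held for 0 of 8 members and 5.19% of genes tested, and 0.832% of genes tested were called lower. These counts include both Scgb2b15 and Scgb2b17, which stand for 1 measurement. They are no support for a family-wide change, since the members reach the mean of 1 FPKM only through the R122C libraries and were chosen with earlier results known.

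In the member pairs, Scgb2b20 with Scgb1b20 and Scgb2b7 with Scgb1b7, the listed FPKM of the Scgb2b gene was the higher in every R122C library. FPKM is scaled by transcript length, but the genes share long stretches of sequence (Scgb1b7 77.3% and Scgb2b7 55.8% of 50-base windows), so the ratios may not be those of the true levels. Scgb2b20 exceeded Scgb1b20 by 3.71-, 2.19- and 2.93-fold in the R122C mice, and Scgb2b7 exceeded Scgb1b7 by 4.74-, 3.54- and 5.47-fold. With Scgb2b15 and Scgb2b17 counted once, the Scgb2b rows summed to 3037, 1411 and 637 FPKM and the Scgb1b rows to 488, 356 and 146 FPKM in these libraries. Several alpha subunit genes have no row, so the sums do not compare all subunits of the cluster.

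**Figure D2:**
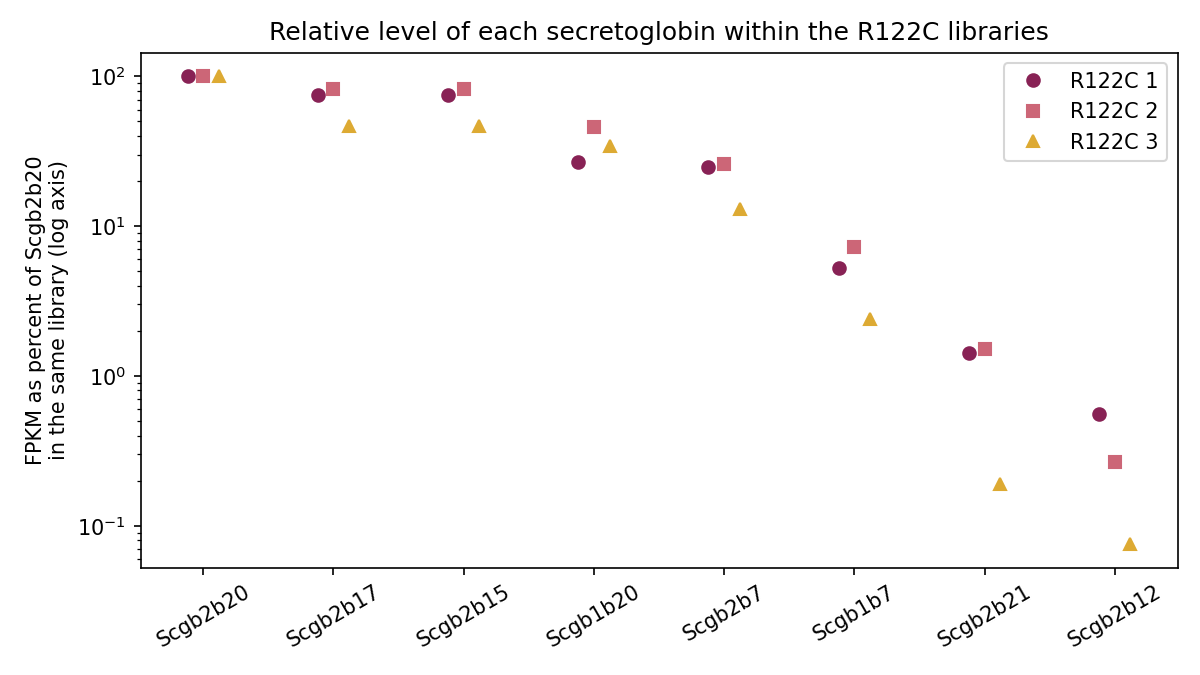
Level of each member as a percentage of Scgb2b20 in the same R122C library (log axis). The order of the members was the same in the 3 libraries, and R122C 3 had the lowest percentage for every member other than Scgb2b20 and Scgb1b20.

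The members stood in the same order of level in all 3 R122C libraries: Scgb2b20, then Scgb2b15 with Scgb2b17, Scgb1b20, Scgb2b7, Scgb1b7, Scgb2b21 and Scgb2b12. Over the libraries, however, neighbours in this order overlapped in range, for example Scgb2b20 at 398 to 1505 FPKM and Scgb2b17 at 185 to 1126 FPKM. Scgb2b17 was at 74.8%, 82.9% and 46.5% of Scgb2b20 in the R122C mice, and Scgb1b20 at 27.0%, 45.6% and 34.2%. Scgb2b21 was at 1.43% of Scgb2b20 in R122C 1 and at 0.191% in R122C 3. Between R122C 1 and R122C 3 the members differed by 2.98-fold (Scgb1b20) to 28.4-fold (Scgb2b21).

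All 8 members, with the identical rows Scgb2b15 and Scgb2b17 both counted, were highest in R122C 1 and lowest of the R122C libraries in R122C 3. This order was shared by 49.7% of all genes tested, and by 23.6% after median-of-ratios scaling, under which all 8 members kept it. Among the 602 genes called higher it was found in 85 (14.1%). Among the 9 other genes called with a log2 fold change of at least 5 it was found in 1, Klk1. The Y-linked gene Ddx3y was at 2.83 and 4.23 FPKM in WT 3 and R122C 2 and at or under 0.02 FPKM in the other libraries. For each member R122C 2 lay between R122C 1 and R122C 3, in both of which Ddx3y was listed at 0.

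**Figure D3:**
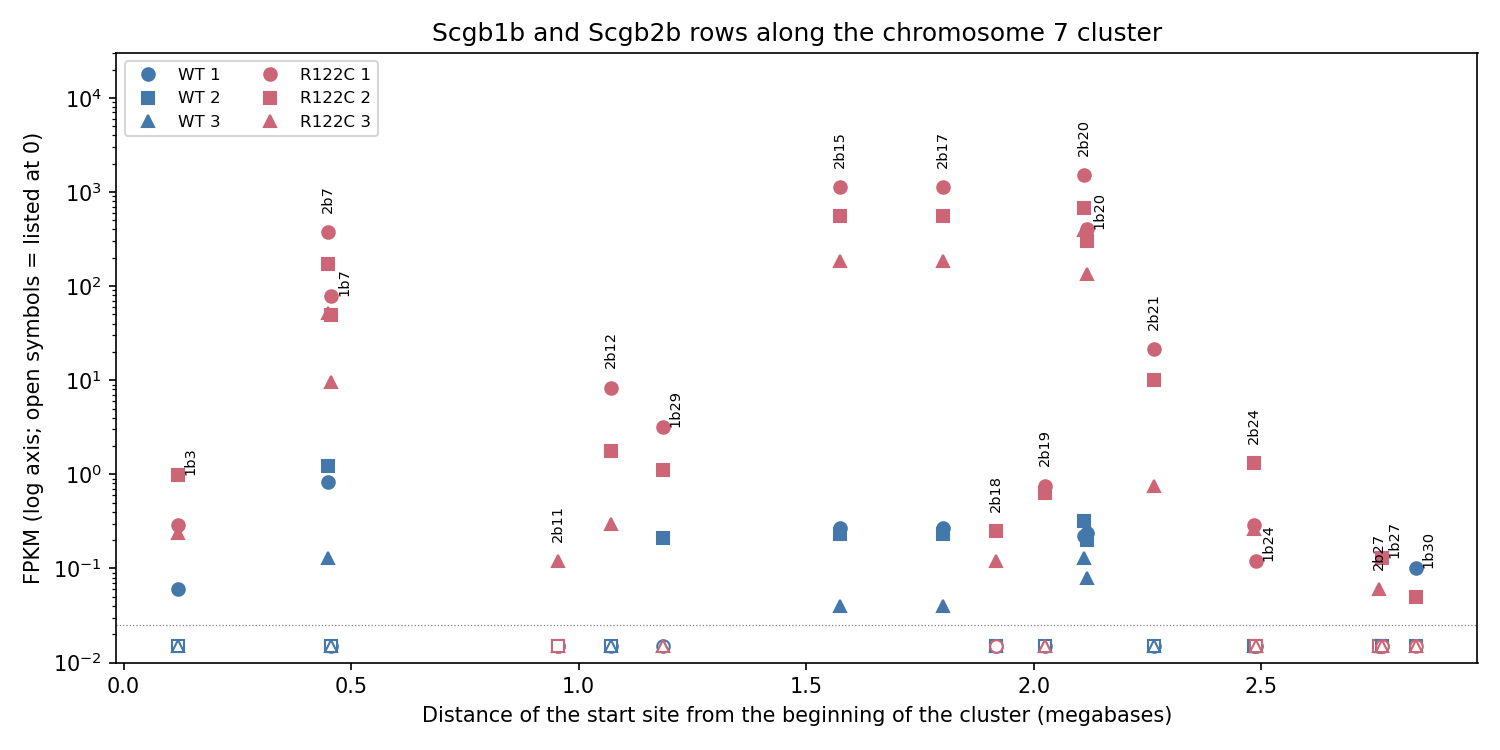
FPKM (log axis, open symbols for values listed at 0) of the 18 Scgb1b and Scgb2b rows against the distance of their start sites from the beginning of the chromosome 7 cluster. High members are interspersed with rows at or near 0, such as Scgb2b18 and Scgb2b19 between Scgb2b17 and Scgb2b20.

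Of the 12 Scgb rows under a mean of 1 FPKM, 10 lie in the cluster. The largest single value among the 12 was 3.15 FPKM, for Scgb1b29 in R122C 1. Scgb1b29 was at 0, 0.21 and 0 FPKM in the WT mice and at 3.15, 1.12 and 0 FPKM in the R122C mice. Scgb2b24 was listed at 0 in WT and was at 0.29, 1.32 and 0.26 FPKM in the R122C mice. Scgb1b3 was at 0.06, 0 and 0 FPKM in the WT mice and at 0.29, 0.98 and 0.24 FPKM in the R122C mice. In Scgb2b24 and Scgb1b3, and in no other of these 12 rows, all R122C values lay above all WT values. Scgb2b19 was listed at 0 in WT and R122C 3 and was at 0.76 and 0.63 FPKM in R122C 1 and R122C 2.

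The best-studied genes of the androgen-binding protein cluster and of the airway were at or near 0. Scgb1b27 and Scgb2b27, the alpha and a beta or gamma subunit gene known from salivary androgen-binding protein, reached 0.13 and 0.06 FPKM at most. Scgb1a1 was at 0.05, 0 and 0.21 FPKM in the R122C mice and at 0 in WT. Scgb3a1 was at 0.36, 0.10 and 0.06 FPKM in the WT mice and at 0.22, 0.15 and 0.39 FPKM in the R122C mice, with overlapping groups. Scgb1b24, Scgb2b18, Scgb1b30 and Scgb2b11 did not exceed 0.25 FPKM in any library. With no filter on low values, 0 of these 12 rows passed limma, with 3 at an unadjusted p under 0.05 (Scgb2b19, Scgb2b24 and Scgb1b3).

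**Figure D4:**
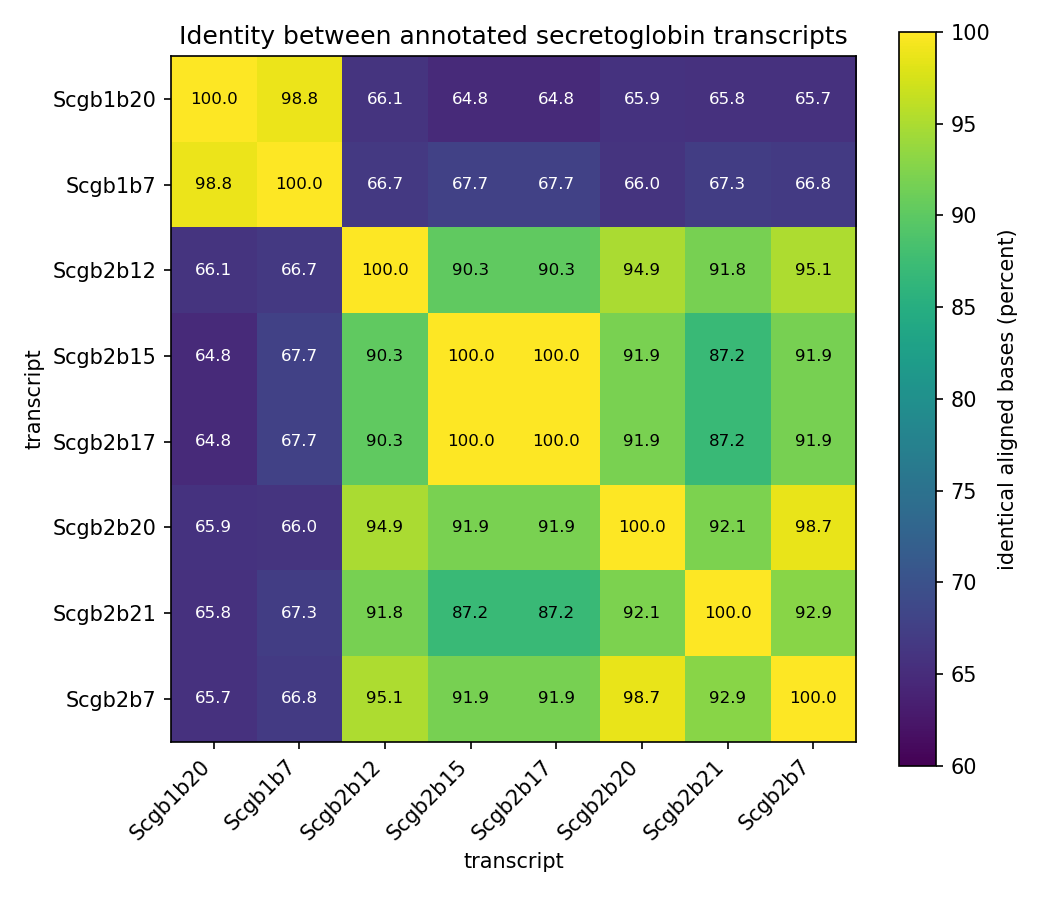
Percentage of identical aligned bases between the annotated transcripts of the 8 members (colour and numbers). The Scgb2b transcripts are 87.2% to 100% identical to each other, the Scgb1b pair 98.8%, and transcripts of different kind 67.7% at most.

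The members resemble each other so closely that fragments of a gene can match another. Of the 50-base windows of its transcript, Scgb2b20 shared 58.0% exactly with another annotated Scgb transcript, Scgb2b7 55.8%, Scgb1b20 57.5%, Scgb1b7 77.3%, Scgb2b12 62.3% and Scgb2b15 and Scgb2b17 100%. The sources used here do not say how fragments with several matches were treated, so the level of each of these genes is uncertain. Scgb2b21 shared only 4.46% of its windows and was at 21.6 and 10.1 FPKM in R122C 1 and R122C 2 against 0 in WT. Scgb2b24 shared 0%, with its R122C values all above WT. Scgb1b29, by contrast, shared 100% of its windows, all with Scgb1b7.

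Of the nearest genes outside the cluster with a row, 5 on each side, 9 were tested. Of these, 3 rose, among them Wtip, encoding a LIM-domain protein, by 1.86 ± 0.19 (limma adjusted p = 0.00165) and Hpn, encoding the membrane protease hepsin, by 1.46 ± 0.25 (0.0125). The Hpn call was lost under 2 of 17 alternatives, without WT 2 (adjusted p = 0.0648) and without R122C 2 (0.0591). Wtip, which lies next to the end of the cluster (34109547 to 34133268), was at 9.09, 10.3 and 9.77 FPKM in the WT mice and at 30.7, 45.4 and 38.9 FPKM in the R122C mice. The other 6 tested, Fxyd3, Gramd1a, Uba2, Pdcd2l, Gpi1 and Lsm14a, had log2 fold changes between 0.08 and 0.75. Of these Uba2 passed with a common FPKM total (adjusted p = 0.0180), with the replicate block (0.0244) and without R122C 3 (0.0466). The median of the 9 was 0.56, beside 0.10 for all genes tested. Gm10640, a noncoding gene, was at or under 0.02 FPKM.

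**Figure D5:**
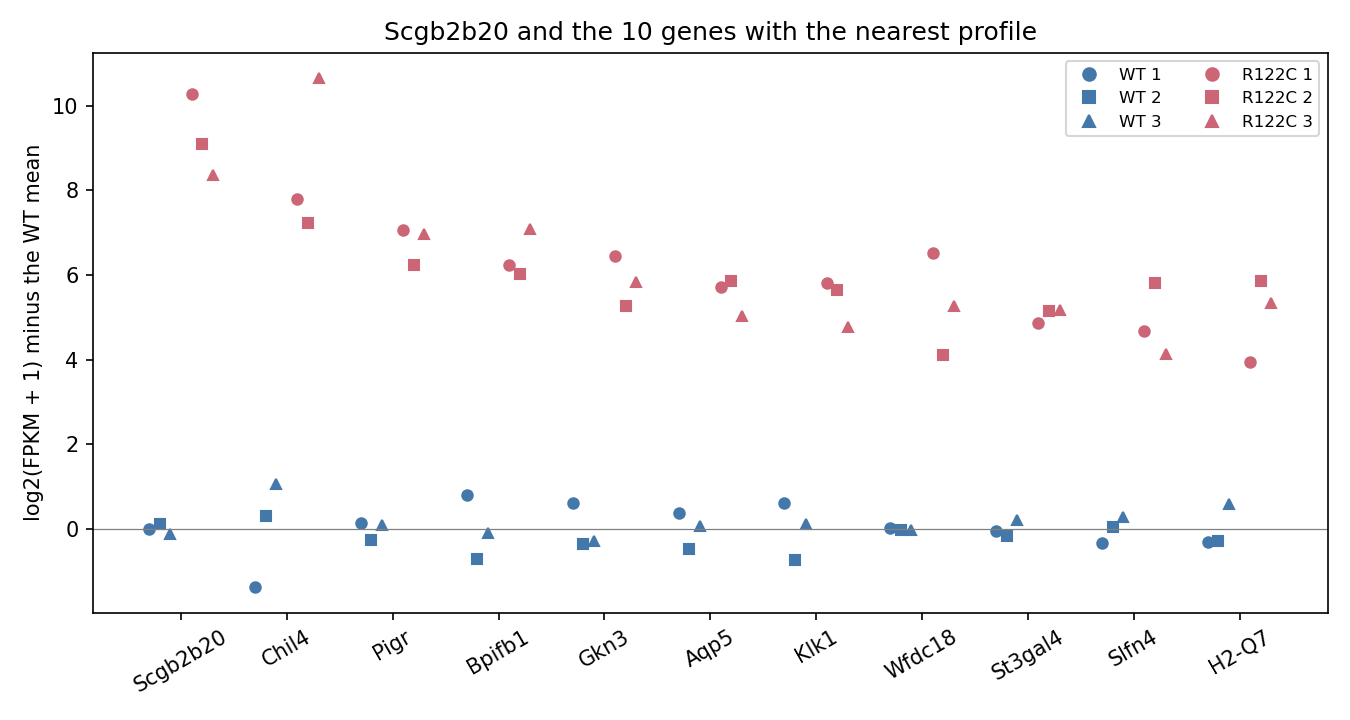
log2(FPKM + 1) minus the WT mean, per library, for Scgb2b20 and the 10 named genes of nearest profile. R122C 1 is the highest R122C library for Scgb2b20, whereas Chil4 and Bpifb1 are highest in R122C 3.

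Likeness to Scgb2b20 was measured as the root mean square difference over the 6 libraries of log2(FPKM + 1) minus the WT mean. This measure favours genes with a change of similar size. The 10 nearest genes outside the family were Chil4, a chitinase-like protein (1.74), Pigr, the carrier of IgA across epithelium (1.85), Bpifb1, a secreted protein of the bactericidal/permeability-increasing fold (2.19), the gastrokine Gkn3 (2.45), the water channel Aqp5 (2.67), the kallikrein Klk1 (2.76), Wfdc18 (2.84), the sialyltransferase St3gal4 (3.03), the schlafen gene Slfn4 (3.16) and the MHC class I gene H2-Q7 (3.17). Scgb2b17 stood at 0.46 and Scgb1b20 at 1.06 on the same measure. Klk1 was at 15.1, 5.35 and 10.4 FPKM in the WT mice and at 585, 523 and 287 FPKM in the R122C mice. Wfdc18 was at 0.04, 0 and 0 FPKM in the WT mice and at 91.7, 16.5 and 38.2 FPKM in the R122C mice.

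Marker lists of organs known for secretoglobins were read beside these values. Of 18 salivary and lacrimal gland genes 5 had a row and 1 was tested, the amylase gene Amy1, at 7.45, 4.27 and 3.18 FPKM in the WT mice and 4.36, 6.08 and 0.64 FPKM in the R122C mice (limma adjusted p = 0.645). The list summed to 3.31 to 7.68 FPKM in WT and 3.11 to 7.11 FPKM in R122C, most of it Amy1 in all libraries but R122C 3. Car6, a salivary carbonic anhydrase, and Lpo, lactoperoxidase, did not exceed 0.05 FPKM. Wfdc12, under the filter, went the other way, at 0.23, 0.22 and 0.08 FPKM in the WT mice and 0.77, 1.00 and 2.40 FPKM in the R122C mice. Of 16 genes of airway club and secretory cells 10 were tested, of which Bpifb1 and Sftpd (surfactant protein D) rose and Gsta3, a glutathione transferase, fell by 1.53 ± 0.22 on the log2 scale. The list summed to 401 to 509 FPKM in WT and 2449 to 4647 FPKM in R122C, where Bpifb1 alone was at 2127 to 4427 FPKM. Without Bpifb1, a sum chosen after the values were seen, it was 377 to 453 FPKM in WT and 220 to 410 FPKM in R122C. Aldh1a1 was the largest part of that sum in every library, at 174 to 238 FPKM in WT and 90.5 to 287 FPKM in R122C. The median of the 10 tested genes, Bpifb1 among them, was 0.91 on the log2 scale, beside 0.10 for all genes tested. The defining gene Cyp2f2 was at or under 0.43 FPKM outside R122C 3, where it was at 3.95 FPKM. Of 7 airway ciliated genes 2 were tested and 0 passed limma (0 at an unadjusted p under 0.05), and the list summed to 13.9 to 22.5 FPKM in WT and 16.7 to 18.5 FPKM in R122C. Tppp3, of the ciliated list, had the smallest p there (adjusted p = 0.901).

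Corpus cell markers moved as well, and their part in the secretoglobin values was not tested. Of 6 genes listed for mucous neck cells 5 rose (list median 3.61 on the log2 scale). The list summed to 3257 to 4966 FPKM in WT and to 25818, 17705 and 18365 FPKM in the R122C mice. Aqp5 and Cd44, among those that rose, had means of only 2.06 and 1.16 FPKM in WT corpus. Whether the listed genes mark mucous neck cells alone was not tested. Of 7 pit cell genes 2 fell, the mucin gene Muc5ac with a log2 fold change of -2.70 ± 0.33 and Capn8, a calpain, with -1.24 ± 0.29 (a call lost under 7 of 17 alternatives, with adjusted p of 0.124, 0.0823, 0.148 and 0.0676 without WT 2, WT 3, R122C 2 and R122C 3), with a list median of -1.32 and sums of 112411 to 256076 FPKM in WT and 56769 to 83331 FPKM in R122C. Of 8 parietal and 4 chief cell genes tested 0 passed limma (3 and 2 at an unadjusted p under 0.05), with medians of -1.03 and -1.54. The parietal list counted Gif, intrinsic factor, which is a chief cell gene in mice, so its figures are not of parietal genes alone. Parietal sums were 5697 to 10422 FPKM in WT and 2781 to 7408 FPKM in R122C, and chief sums 34913 to 111225 FPKM and 1594 to 26301 FPKM. R122C 3, the R122C library with the least secretoglobin RNA, had the most of the squamous list, 1236 FPKM against 27.1 and 55.6 FPKM in R122C 1 and R122C 2 and 1.18 to 17.7 FPKM in WT. Of its 10 tested genes 1 rose (Krt13, a keratin, adjusted p = 0.0430), a call lost under 9 of 17 alternatives, with adjusted p up to 0.158. Without WT 1, WT 2, WT 3 or R122C 2 its adjusted p was 0.112, 0.0915, 0.110 or 0.122. The antral list of 3 genes had 1 that rose, Gast, which encodes gastrin (adjusted p = 0.0183, lost with quantile normalization at 0.0612 and without WT 1, WT 2 or R122C 2 at 0.0503, 0.0902 or 0.0827) and was at 3.55 FPKM or less, and the list summed to 106 to 358 FPKM in WT and 141 to 287 FPKM in R122C. The list of Y-linked genes with Xist held 5 genes, of which 3 were tested and 0 passed limma (0 at an unadjusted p under 0.05).

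Other secreted defence genes of mucosal surfaces rose in the same libraries. Of 26 listed, 19 were tested and 14 rose. The list median was 2.76 on the log2 scale, beside 0.10 for all genes tested. The largest rises were of Chil4 by 8.55 ± 0.89, Pigr by 6.75 ± 0.25, Bpifb1 by 6.45 ± 0.41 and Wfdc18 by 5.30 ± 0.51. Many of these genes had been seen to rise in these data before the list was written.

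Regulators that have been reported for secretoglobin genes in other tissues passed the test in a few cases. Of 16, 13 were tested and 3 rose, with a list median of 0.34. Spdef, an ETS factor of mucous secretory cells, was at 24.2, 21.4 and 21.4 FPKM in the WT mice and at 186, 153 and 103 FPKM in the R122C mice, a rise of 2.63 ± 0.23 on the log2 scale (limma adjusted p = 0.000832). Cebpa, a C/EBP factor, rose by 1.38 ± 0.17 (adjusted p = 0.00328). Runx3 itself was at 0.12 to 0.34 FPKM in WT and 0.24 to 0.95 FPKM in R122C, under the filter.

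Reported binding partners and receptors of secretoglobins formed a list of 10. Of these, 5 were tested and 0 passed limma, with a median of 0.28 and 2 at an unadjusted p under 0.05 (Tgm2 and the fibronectin gene Fn1). Tgm2, a transglutaminase known to crosslink Scgb1a1, stood 1.67 ± 0.43 higher on the log2 scale (adjusted p = 0.0585). It passed with a common FPKM total (0.0301), without R122C 1 (0.0348) and without R122C 3 (0.0462). Cubn and Lrp2, the endocytic receptors cubilin and megalin, and Marco, a scavenger receptor, were at 0.13 FPKM or less in every library.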

How the data were processed

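RNA was measured in corpus tissue of 6 mice, 1 library each. The authors deposited FPKM values with 2 decimals, and per the submitters' processing notes STAR, featureCounts and mm10 were used. The sources used here do not give the conversion to FPKM or the handling of fragments with several matches. Depth was estimated at 32400000 to 45100000 fragments per library from the step between low values in genes with 1 annotated transcript under 1500 bases. A limit of 1000 bases gave 31200000 to 43600000. No counting interval was derived.

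Values were tested as log2(FPKM + 1) where the gene's mean reached 1 FPKM (11422 of 18708 rows) with limma 3.58.1 in R 4.3.3 (eBayes with trend, two-sided, Benjamini-Hochberg adjustment over all genes tested, threshold 0.05). The script was tested on simulated data. Transcripts (GENCODE M21) were aligned with Biopython 1.88, each gene by its longest protein-coding transcript. Protein sequences were not analysed here. Figures were drawn with matplotlib 3.10.9.

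The members and lists were chosen with earlier results of these data known. Named genes are all Scgb rows, the 5 nearest genes on each side of the cluster, the 10 nearest profiles, up to 4 called members per list or else the one of smallest p, and Runx3. Others were named after their values were seen. Some genes that the rule takes are not reported here. Alternatives covered pseudocount, filter, scaling, the eBayes settings, a replicate block, a covariate for Y-linked transcripts and leaving out each library.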

Additional observations from a re-analysis of the deposited data

How the results depend on the processing

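Scgb2b20, Scgb2b17, Scgb2b15, Scgb1b20, Scgb2b7 and Scgb1b7 passed the threshold under all 17 alternatives, with the log2 fold change of Scgb2b20 between 8.73 and 11.20. Between 6 and 8 secretoglobin rows passed, the identical Scgb2b15 and Scgb2b17 both counted, with 6 under the replicate block. Same-numbered libraries correlated at 0.47, 0.02 and 0.37 in their deviations from the group means. Libraries of different number correlated at -0.42 to 0.11. Estimated depth fell with the number in both groups, from 44000000 to 32400000 fragments in WT and from 45100000 to 33000000 in R122C. The main test did not pair the samples by number, and whether same-numbered libraries shared a batch was not tested. The median log2 fold change of all genes was 0.10, and it was -0.06 under quantile normalization and 0.29 with a common FPKM total. Genes called higher, 602 as reported, were 392 with a mean of at least 5 FPKM, 1259 with a common total and 1119 with the block. Genes called lower, 95 as reported, were 57 with a mean of at least 5 FPKM, 195 with median-of-ratios scaling, 248 with quantile normalization, 259 with the block and 62 with the covariate for Y-linked transcripts. The split of calls moved with the scaling: 426 higher and 195 lower with median-of-ratios scaling, and 405 and 248 with quantile normalization. Leaving out each library gave 246 (without WT 2) to 581 higher and 14 (without R122C 2) to 195 (without R122C 1) lower.

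Some small log2 fold changes reversed, and the cause was not tested. Pdcd2l was at -0.0095 with quantile normalization and Lsm14a at -0.033 and -0.081 with median-of-ratios scaling and quantile normalization. Tppp3 was at -0.038 and -0.092 under these scalings. Leaving out each library gave -0.036 to 0.34 for Pdcd2l, -0.11 to 0.28 for Lsm14a, -0.063 to 0.28 for Tppp3, -0.95 to 0.11 for Amy1 and -0.19 to 0.54 for Ddx3y. With 3 mice per group, and WT values of a few fragments, the size of the rise is less certain than its direction.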
